A study of Mus musculus with 12 samples.

Results

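The 10 mouse genes described here sense, relay or clear misplaced DNA or belong to the interferon-inducible Ifi200 family, and they were followed in liver and gastrocnemius muscle of mice homozygous for the Mars2 R135W allele and of wild-type (WT) mice. They were taken by symbol, with earlier results of these data known, and are 10 of the 24062 genes counted. By role they are the DNA sensors Mb21d1 (cGAS), Aim2 and Tlr9, the adaptor Tmem173 (STING), the clearing enzymes Trex1 and Samhd1, and the Ifi200 genes Ifi203, Ifi204, Ifi205 and Pydc3. Mars2 encodes the mitochondrial methionyl-tRNA synthetase, which charges the transfer RNA that starts and extends proteins made inside mitochondria, and R135W replaces an arginine with a tryptophan. The 12 poly(A) RNA-seq libraries came from 6 female C57BL/6N mice on chow: 3 R135W/R135W animals (animal 5, aged 9.0 weeks, animal 7, aged 7.4 weeks, and animal 12, aged 8.6 weeks) and 3 WT animals (animals 6 and 8, aged 9.0 weeks, and animal 9, aged 7.4 weeks), each giving a liver and a gastrocnemius library. The allele is present in every cell of these whole-tissue samples, so neither the cell type nor the tissue in which a difference began can be told apart.

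cGAS binds DNA in the cytosol and makes a cyclic dinucleotide that activates STING, whose signalling through IRF3 switches on type I interferon. AIM2 binds cytosolic DNA and assembles an inflammasome, TLR9 reads unmethylated CpG DNA inside endosomes, TREX1 degrades cytosolic DNA, and SAMHD1 hydrolyses deoxynucleotides. The Ifi200 genes, named for interferon-inducible proteins that carry a DNA-binding HIN domain, a pyrin domain or both, sit side by side on mouse chromosome 1, and type I interferon raises many of them in macrophages.

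Of the 10 genes 5 lie in that cluster, which in the mm10 annotation of the files runs from Aim2 to Ifi205 over 611.2 kb and 12 genes (chr1:173420604-174031755). Aim2 is at chr1:173420604-173466036 on the plus strand, Pydc3 at chr1:173673680-173698392 on the plus strand, Ifi204 at chr1:173747294-173766919, Ifi203 at chr1:173920403-173942492 and Ifi205 at chr1:174011998-174031755, these last 3 on the minus strand. Outside the cluster, Mb21d1 (chr9:78430518-78443147, minus), Tlr9 (chr9:106222598-106226876, plus) and Trex1 (chr9:109057932-109059723, minus) are on chromosome 9, and Samhd1 is at chr2:157097529-157135222 on the minus strand. RefSeq promoter windows of 300 bases (250 before to 50 after a gene's start, GRCm38.p6) were matched for 8 of the 10 genes. They were searched on both strands for the core of the interferon-stimulated response element, searched as GAAANNGAA, at which interferon-activated factors bind. It was present in windows of 3 genes, Pydc3, Ifi203 (at the downstream of its 2 starts) and Ifi205, and in 8.56% of all 32851 windows. No match was found in the windows of Aim2, Mb21d1, Tlr9, Trex1 or Samhd1, which says only that these letters are absent there. The core of the gamma-activated site, TTCNNNGAA, was present in 8.3% of all windows and, among the 10 genes, in that of Samhd1 alone.

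The windows of Pydc3 (chr1:173673415-173673714, plus strand) and Ifi205 (chr1:174031706-174032005, minus strand) are shown because these genes of the same cluster had muscle fold changes of opposite sign. Capitals mark the response element core, which in Ifi205 occurs once on each strand, from 134 bases before the start and, on the opposite strand, from 24 to 32 bases after it.
Pydc3: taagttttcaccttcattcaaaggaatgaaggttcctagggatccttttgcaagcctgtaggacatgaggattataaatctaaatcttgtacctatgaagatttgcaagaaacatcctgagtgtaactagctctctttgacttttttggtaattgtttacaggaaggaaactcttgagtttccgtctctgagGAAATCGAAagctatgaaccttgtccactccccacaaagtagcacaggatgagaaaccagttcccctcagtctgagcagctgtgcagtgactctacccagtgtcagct
Ifi205: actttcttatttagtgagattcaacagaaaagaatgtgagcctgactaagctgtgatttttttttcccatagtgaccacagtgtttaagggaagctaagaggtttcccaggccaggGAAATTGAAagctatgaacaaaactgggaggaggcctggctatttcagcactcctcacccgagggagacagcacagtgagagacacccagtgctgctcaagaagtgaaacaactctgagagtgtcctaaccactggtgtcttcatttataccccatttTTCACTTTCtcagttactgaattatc

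The bases after the core were the same in several genes of the cluster. A 19-letter word, GAAANNGAAAGCTATGAAC, was found in 7 of the 32851 windows, all 7 in this cluster, and overlaps the response element core. It was picked after these sequences had been read, so its count is a description. Its copies in the 3 genes followed here and in their neighbours Mndal, Mnda (Ifi211 in RefSeq), Pydc4 (Ifi213) and Ifi206 are given with 12 bases before and 9 after, the word in capitals, each on the strand of its gene. Ifi206 has no symbol of its own in the files' annotation.
Pydc3, chr1:173673595-173673634, plus: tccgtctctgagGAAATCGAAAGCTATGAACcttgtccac
Pydc4, chr1:173599318-173599357, minus: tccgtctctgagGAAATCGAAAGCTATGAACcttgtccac
Ifi206, chr1:173491331-173491370, minus: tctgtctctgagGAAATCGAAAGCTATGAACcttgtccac
Ifi203, chr1:173942500-173942539, minus: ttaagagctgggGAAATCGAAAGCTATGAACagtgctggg
Mndal, chr1:173880196-173880235, minus: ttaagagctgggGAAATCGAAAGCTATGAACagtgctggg
Mnda, chr1:173913056-173913095, minus: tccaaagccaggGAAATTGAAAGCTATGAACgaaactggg
Ifi205, chr1:174031862-174031901, minus: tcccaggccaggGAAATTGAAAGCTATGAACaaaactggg

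Pydc3 and Pydc4 had identical 40-base stretches, and so had Ifi203 and Mndal, while Mnda and Ifi205 carried the other form of the core. The word began 58 bases before the start in Pydc3, 35 before it in Ifi203, 37 before it in Mnda and 134 before it in Ifi205, as the promoter map shows.

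**Figure D1:**
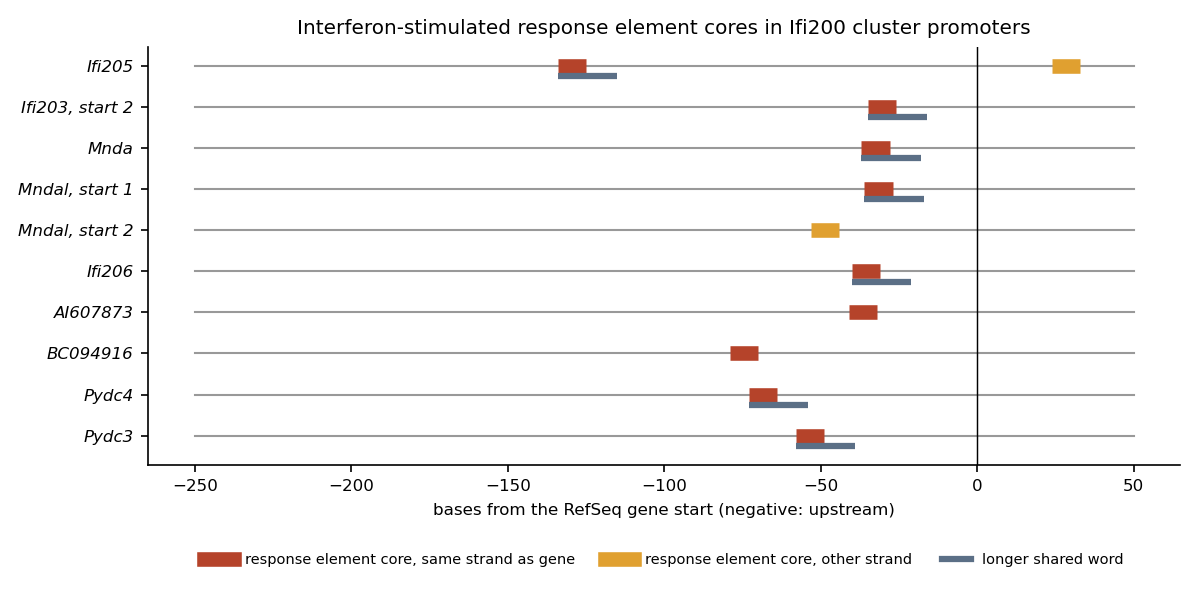
Response element cores in the RefSeq promoter windows of the Ifi200 cluster that hold 1 (horizontal axis: bases from the gene start, with negative values upstream; red: core on the strand of the gene; orange: core on the opposite strand; blue: the 19-letter word). The cores sit between 134 bases before and 32 bases after the start, farthest upstream in Ifi205.

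Total counts ran from 20751583 to 30460237 per library. The unit of level is CPM, the count of a gene scaled by the total of its library times a normalization factor (TMM). Liver libraries held 77553 to 86128 CPM over 8 hepatocyte markers in R135W mice and 95250 to 96075 CPM in WT mice. Gastrocnemius libraries held 152536 to 186926 CPM over 8 myofibre markers in R135W mice and 144571 to 164102 CPM in WT mice. One gastrocnemius library, that of R135W animal 12, had 43.1 CPM of hepatocyte markers, against 0.422 to 7.64 CPM in the other 5, far below the levels in liver. Mars2 itself was at 2.4 to 3.63 CPM in R135W livers and 2.24 to 3.4 CPM in WT livers, and at 8.88 to 10.6 CPM in R135W muscle and 10.9 to 12.8 CPM in WT muscle; the edgeR quasi-likelihood test gave a Benjamini-Hochberg adjusted p of 0.9 in liver and 0.295 in muscle. A missense allele need not change this level, so it does not check the genotype labels.

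In liver 5 of the 10 genes rose in R135W mice: Tlr9, Ifi205, Pydc3, Ifi204 and Samhd1, by 1.71-fold to 4.78-fold. None fell, and the other 5 had fold changes between 1.37 and 1.56 that did not pass an adjusted p of 0.05. Over all 13935 genes tested in liver, 2.76% were called higher and 0.524% lower. The 10 genes each had an unadjusted p under 0.05, as did 17.6% of all tested genes. For each of the 10 genes the lowest R135W liver lay above the highest WT liver, as did 14.1% of all tested genes, and the median log2 fold change was 0.71 for the 10 genes and -0.01 for all genes. Tlr9 passed the filter on low counts through its R135W libraries, so its place among the 10 tested genes depends on the difference. The calls were lost for all 5 genes without R135W animal 7 or without WT animal 8, where the 10 genes still had positive fold changes; without WT animal 9 only Ifi205 was called, and without R135W animal 12 the 3 calls were Tlr9, Ifi205 and Samhd1. With age as a covariate the 3 calls were Tlr9, Ifi205 and Samhd1, and in a fit of all 12 libraries 8 genes were called.

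**Figure D2:**
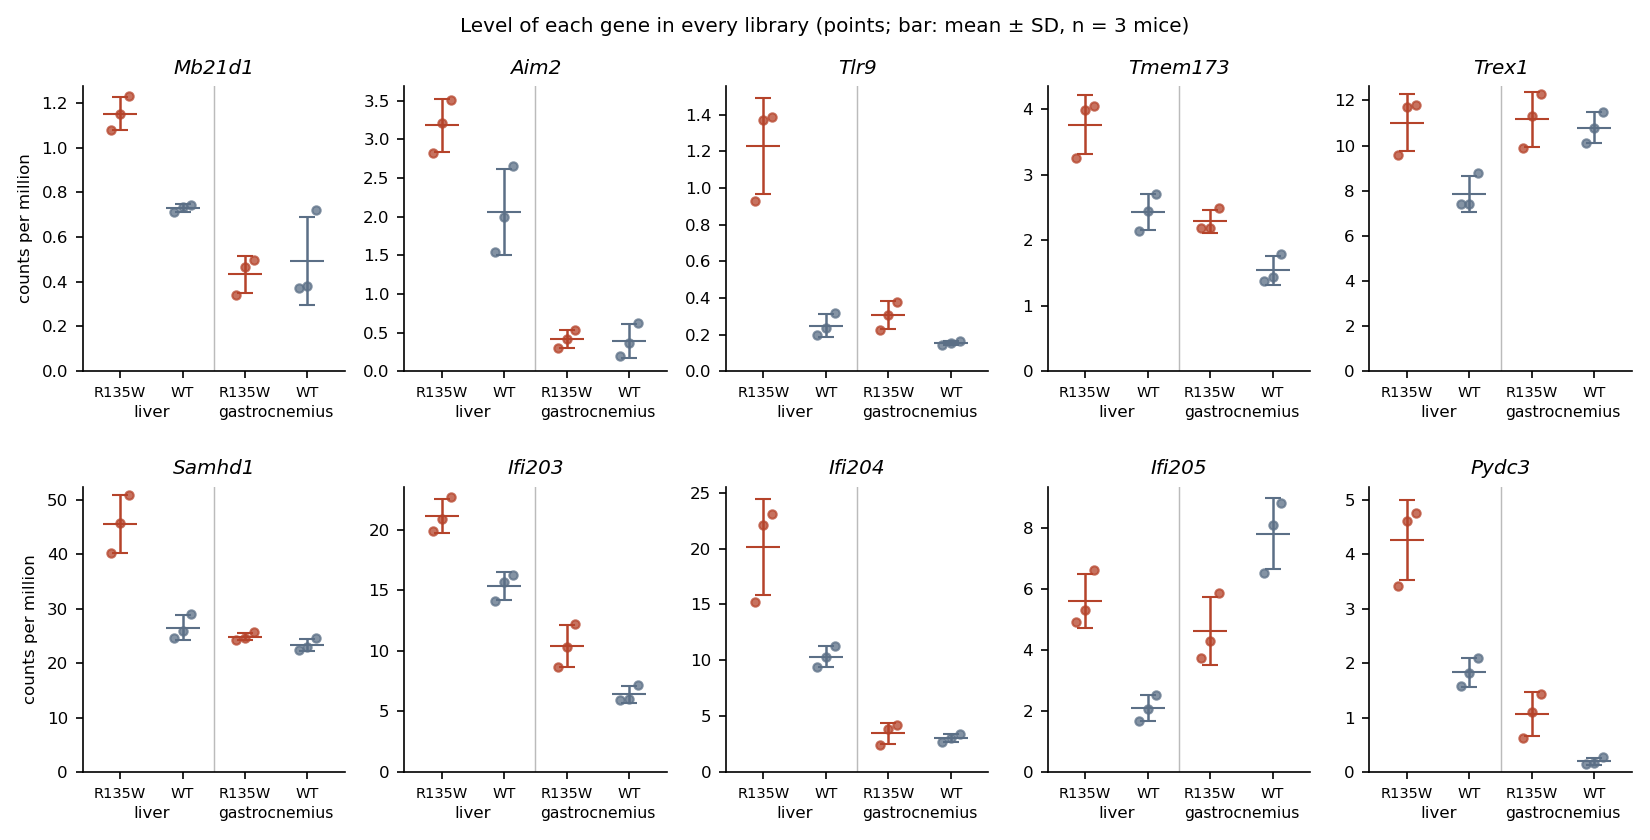
CPM of each gene in every library (vertical axes start at 0 and differ between panels; points: libraries; bars: mean ± SD, n = 3 mice; red: R135W; blue: WT). In liver the R135W points lie above the WT points in all 10 panels. In gastrocnemius Ifi205 is lower in R135W mice and Pydc3, Ifi203, Tmem173 and Tlr9 are higher, each without overlap, while the other panels overlap.

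Among the sensors, Tlr9 changed most. It had 0.930, 1.37 and 1.39 CPM in the livers of R135W animals 5, 7 and 12, and 0.233, 0.196 and 0.316 CPM in those of WT animals 6, 8 and 9. These rest on 25 to 46 counts per R135W library and 4 to 8 per WT library, and the groups did not overlap. Its log2 fold change was 2.26 ± 0.35 (SE; edgeR adjusted p = 0.0163).

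Mb21d1, the cGAS gene, was the least abundant of the 10 in R135W liver, at 0.270 to 0.306 CPM per kilobase of exon (RPKM), a range that overlapped that of Tlr9. It had 1.08, 1.23 and 1.15 CPM in R135W livers (animals 5, 7 and 12), against 0.745, 0.735 and 0.712 CPM in WT livers (animals 6, 8 and 9). The libraries of the genotypes were apart, but with 15 to 38 counts each the log2 fold change of 0.64 ± 0.25 gave an edgeR adjusted p of 0.234. Aim2, the inflammasome sensor, had 2.83, 3.21 and 3.51 CPM in R135W livers and 2.0, 2.65 and 1.54 CPM in WT livers. The gap between the lowest R135W and the highest WT liver was narrow, and its log2 fold change of 0.63 ± 0.24 had an edgeR adjusted p of 0.221.

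The adaptor Tmem173 had 4.05, 3.25 and 4.0 CPM in R135W livers and 2.70, 2.45 and 2.14 CPM in WT livers. The groups were apart, with a log2 fold change of 0.63 ± 0.19 (SE; edgeR adjusted p = 0.138).

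Of the clearing enzymes, Samhd1 rose: it had 40.2, 50.9 and 45.8 CPM in R135W livers and 24.6, 26.0 and 29.0 CPM in WT livers. All R135W livers stood well above the highest WT liver, and the log2 fold change was 0.78 ± 0.13 (SE; edgeR adjusted p = 0.0183). Trex1, the cytosolic 3′ exonuclease, had 9.56, 11.7 and 11.8 CPM in R135W livers and 7.41, 8.77 and 7.40 CPM in WT livers. The groups were apart, and its log2 fold change of 0.48 ± 0.15 had an edgeR adjusted p of 0.141. Trex1 is uncertain in another way: 91.7% of the 100-base stretches of its GENCODE vM21 transcripts also occur in transcripts of Atrip, its upstream neighbour, so fragments of such transcripts could be counted for Trex1.

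Of the 4 Ifi200 genes 3 rose in liver. Ifi205 had 4.91, 6.60 and 5.30 CPM in R135W livers, against 2.05, 1.67 and 2.53 CPM in WT livers, a log2 fold change of 1.41 ± 0.22 (SE; edgeR adjusted p = 0.0163). Pydc3, whose product carries a pyrin domain, had 3.42, 4.62 and 4.75 CPM in R135W livers and 2.10, 1.81 and 1.58 CPM in WT livers, with a log2 fold change of 1.22 ± 0.22 (SE; edgeR adjusted p = 0.0238). In neither gene did the genotypes come near each other. Ifi204, the mouse p204 gene, had 15.2, 23.1 and 22.1 CPM in R135W livers and 11.3, 9.4 and 10.3 CPM in WT livers. Its log2 fold change was 0.96 ± 0.18 (SE; edgeR adjusted p = 0.0271), with R135W animal 5 the nearest to the WT livers. Ifi203 had 19.9, 22.7 and 20.9 CPM in R135W livers and 16.3, 15.7 and 14.1 CPM in WT livers; these were apart, with the smallest log2 fold change of the 10 genes, 0.46 ± 0.12 (SE; edgeR adjusted p = 0.0889).

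R135W animal 5 gave the lowest R135W liver value for 9 of the 10 genes and the lowest R135W muscle value for 7. Animal 7 gave the highest for 5 genes in liver and 7 in muscle.

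Markers of immune cells moved with genotype in liver. Of 15 macrophage and Kupffer cell markers 13 were called higher, and the other 2 had negative log2 fold changes, the lowest -0.46. The median of the 15 was 1.09. Their summed level was 1083 to 1185 CPM in R135W livers and 428 to 625 CPM in WT livers, with no marker at 0. The 7 monocyte markers summed to 22.5 to 26.4 CPM in R135W livers and 11.2 to 12.6 CPM in WT livers, with 3 of 6 tested called higher. The 7 B cell markers summed to 15.2 to 20.5 CPM in R135W livers and 8.23 to 12.5 CPM in WT livers, with 1 of 7 called higher. The 8 dendritic cell markers summed to 17.3 to 20.5 CPM in R135W livers and 13.5 to 15.1 CPM in WT livers, and the 7 NK cell markers to 6.4 to 8.99 CPM in R135W livers and 3.53 to 4.38 CPM in WT livers, with 1 of 8 and 2 of 4 tested called higher. T cell and neutrophil sums were also apart, with 0 of 5 and 0 of 4 tested called by edgeR or limma-voom, 0 and 1 by DESeq2, and 2 of each list at an unadjusted p under 0.05. In muscle the 15 macrophage markers summed to 44.6 to 50 CPM in R135W mice, with Vsig4 at 0 in all 3 libraries, and to 38.8 to 51.1 CPM in WT mice, and 0 of 9 tested were called by edgeR, DESeq2 or limma-voom, with 1 at an unadjusted p under 0.05. Endothelial sums were apart in muscle: the 7 markers summed to 269 to 300 CPM in R135W mice, with none at 0, and 214 to 235 CPM in WT mice, with 1 of 6 tested called higher by edgeR, 2 called by DESeq2 and 5 at an unadjusted p under 0.05. In liver the same 7 summed to 231 to 301 CPM in R135W mice and 181 to 293 CPM in WT mice. T cell sums were also apart in muscle, at 5.55 to 6.08 CPM in R135W mice and 3.9 to 5.36 CPM in WT mice. So were the low NK cell sums, at 0.454 to 0.465 CPM in R135W mice and 0.192 to 0.289 CPM in WT mice. In muscle 2 T cell markers were tested, with log2 fold changes of opposite sign, -0.29 and 0.25, and 0 NK cell markers were tested. Of these, 0 were called by edgeR, DESeq2 or limma-voom. Among T cell markers Trat1 was at 0 in every muscle library and Cd3d in every WT one. The NK cell markers Ncr1, Klrb1c and Eomes were also at 0 in every WT muscle library. Monocyte, dendritic cell, B cell and neutrophil sums overlapped there. These markers are expressed mainly but not only in the cells named. The part of cell numbers in the liver and muscle values was not tested, and in whole tissue a change in cell number and a change in RNA per cell cannot be told apart.

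In gastrocnemius 1 of the 9 genes tested, Pydc3, was called higher in R135W mice by edgeR, and none was called lower, where 0.542% of all 13826 tested genes were called higher and 0.333% lower. Of the 9, 4 had an unadjusted p under 0.05, against 11.5% of all tested genes. Pydc3 had 0.633, 1.44 and 1.11 CPM in R135W muscle (animals 5, 7 and 12) and 0.166, 0.144 and 0.268 CPM in WT muscle (animals 6, 8 and 9). The libraries were apart, on 15 to 38 counts in R135W mice and 4 to 7 in WT mice, so the gene passed the filter on low counts through its R135W libraries. Its log2 fold change was 2.43 ± 0.42 (SE; edgeR adjusted p = 0.0369). The call held without R135W animal 5 and was lost without any other single library (edgeR adjusted p 0.0805 to 0.191) and in limma-voom (0.0503).

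Ifi203 had 8.70, 12.2 and 10.3 CPM in R135W muscle and 6.06, 5.95 and 7.21 CPM in WT muscle. The genotypes were apart and the log2 fold change, 0.68 ± 0.14, had an edgeR adjusted p of 0.0708. DESeq2 called it (adjusted p = 0.00435). Tmem173 was also apart, with 2.49, 2.19 and 2.18 CPM in R135W muscle and 1.79, 1.44 and 1.38 CPM in WT muscle, a log2 fold change of 0.56 ± 0.17 and an edgeR adjusted p of 0.232.

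Ifi205 had the opposite sign. It had 3.72, 5.86 and 4.29 CPM in R135W muscle and 8.80, 8.08 and 6.52 CPM in WT muscle, so every R135W library was below every WT library. The log2 fold change was -0.76 ± 0.18 with an edgeR adjusted p of 0.11, and DESeq2 called it lower (adjusted p = 0.00891). Of the 9 tested genes, libraries were apart and higher in R135W muscle for 3 and apart and lower for 1. Libraries were apart in either direction for 16.2% of all tested genes in muscle.

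The remaining genes overlapped between genotypes in muscle or had too few counts. Samhd1 had 24.3, 25.7 and 24.7 CPM in R135W muscle and 23.0, 22.4 and 24.6 CPM in WT muscle (log2 fold change 0.08 ± 0.07). Trex1 was at 9.88 to 12.3 CPM in R135W muscle and 10.1 to 11.5 CPM in WT muscle, and Ifi204 at 2.41 to 4.20 CPM in R135W muscle and 2.71 to 3.37 CPM in WT muscle. Mb21d1 had 0.340 to 0.498 CPM in R135W muscle and 0.374 to 0.721 CPM in WT muscle, and Aim2 0.296 to 0.530 CPM in R135W muscle and 0.192 to 0.623 CPM in WT muscle. Tlr9 was not tested in muscle, with 6 to 9 counts per R135W library and 4 in each WT library. On these few counts its libraries were apart, at 0.227 to 0.380 CPM in R135W muscle and 0.144 to 0.166 CPM in WT muscle.

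**Figure D3:**
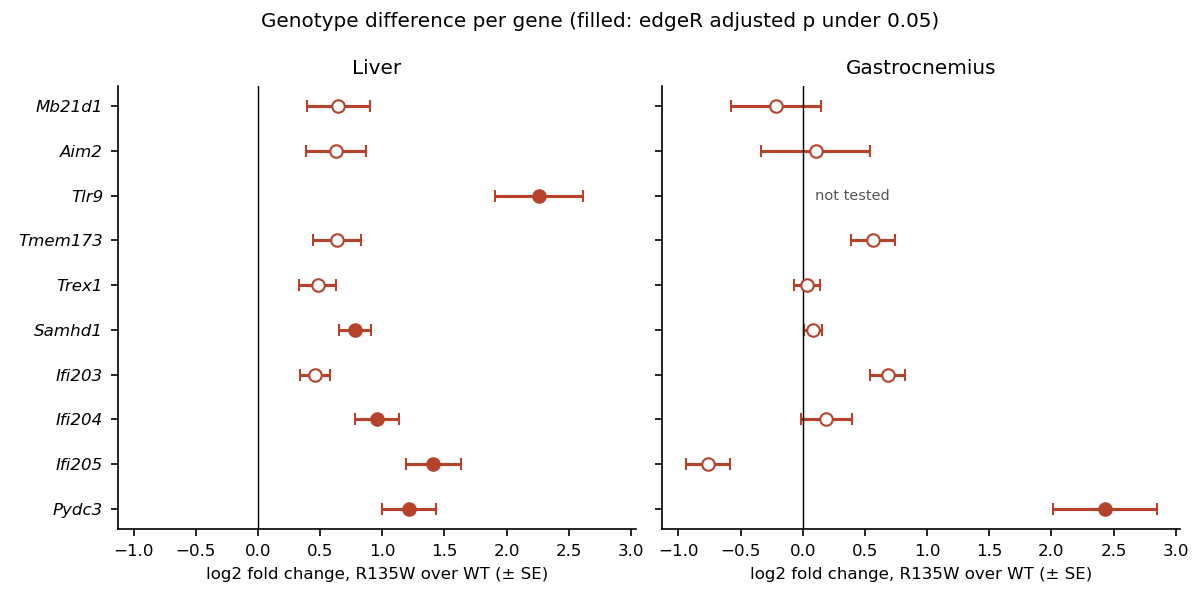
Log2 fold change of R135W over WT for each gene in liver and in gastrocnemius (points: edgeR estimate; bars: ± SE; filled: adjusted p under 0.05). All 10 estimates are positive in liver, from 0.46 to 2.26, while in gastrocnemius they run from -0.76 for Ifi205 to 2.43 for Pydc3.

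The difference between the tissues was tested directly as the liver effect minus the muscle effect. Ifi205 was the only one of the 10 genes called, at 2.16 ± 0.30 on the log2 scale (SE; edgeR adjusted p = 0.0138), where 0.13% of 15414 tested genes were called. With the animal as a block it was 2.18 (edgeR adjusted p = 0.0157). The call held without animal 7 (0.0479) and was lost without animal 5, 6, 8, 9 or 12, at adjusted p values of 0.0533 to 0.12 and differences of 2.0 to 2.44. Samhd1 came next by p, with a larger effect in liver (0.69 ± 0.14, edgeR adjusted p = 0.0989; DESeq2 adjusted p = 0.00898). Pydc3 had a larger estimate in muscle, but the difference of -1.22 ± 0.47 did not pass (edgeR adjusted p = 0.401).

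Without the allele, the tissues already differed. Of 9 genes tested in WT mice, 5 were higher in liver than in gastrocnemius and 2 lower, where 40.9% of 14858 tested genes were called higher and 40.6% lower. Pydc3 averaged 1.83 ± 0.258 CPM in WT liver and 0.193 ± 0.0663 CPM in WT muscle (SD, n = 3 each), a log2 difference of 3.23 ± 0.32 (SE; edgeR adjusted p = 8.14e-06). Aim2 (2.41), Ifi204 (1.79), Ifi203 (1.28) and Tmem173 (0.68) were also higher in liver on the log2 scale. Ifi205 went the other way, averaging 2.08 ± 0.434 CPM in WT liver and 7.80 ± 1.17 CPM in WT muscle, a log2 difference of -1.87 ± 0.20 (SE; edgeR adjusted p = 1.66e-05). Trex1 was lower in liver by a log2 difference of -0.44 (edgeR adjusted p = 0.01), a call lost without animal 6 (0.0728) or 9 (0.0804), and Tmem173 was not called without animal 8 (0.0782). Mb21d1 and Samhd1 did not pass the test between tissues.

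Over the 4 groups Ifi205 therefore had its own order: WT muscle was highest (7.80 CPM), then R135W liver (5.6 CPM) and R135W muscle (4.62 CPM), each overlapping the next, with WT liver lowest (2.08 CPM) and apart. For 8 of the other 9 genes R135W liver was highest and apart from the next group. The exception was Trex1, which averaged 11.1 CPM in R135W muscle and 11 CPM in R135W liver, and was apart only in WT liver (7.86 CPM).

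Per length of exon, Samhd1 (11.4 ± 1.33 RPKM), Trex1 (9.68 ± 1.10) and Ifi204 (8.77 ± 1.88) led in R135W liver, in ranges that overlapped from each to the next, and Tlr9 (0.354 ± 0.0749) and Mb21d1 (0.288 ± 0.0184) were lowest (SD, n = 3). In WT liver Trex1 (6.91 ± 0.694 RPKM) and Samhd1 (6.61 ± 0.559) overlapped at the top, and Tlr9 was lowest, at 0.0716 ± 0.0178 RPKM, below Mb21d1 at 0.183 ± 0.00428 RPKM without overlap. Trex1 led in muscle, with 9.80 ± 1.06 RPKM in R135W mice and 9.51 ± 0.599 RPKM in WT mice.

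The whole Ifi200 cluster was then read in order. Of its 12 genes 10 were tested in liver, and edgeR called 5 higher: Pydc3, Ifi204 and Ifi205 of the genes followed here, and Mnda and Pyhin1. All 10 log2 fold changes were positive in liver. Mnda averaged 6.51 ± 1.03 CPM in R135W liver and 2.24 ± 0.294 CPM in WT liver (SD, n = 3 each; log2 fold change 1.53, edgeR adjusted p = 0.00904). Pyhin1 averaged 6.20 ± 1.46 CPM in R135W liver and 2.70 ± 0.245 CPM in WT liver (log2 fold change 1.19, edgeR adjusted p = 0.0243). Ifi202b had 0 counts in all 12 libraries.

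In muscle 9 cluster genes were tested and edgeR called Pydc3 alone; 6 of the 9 log2 fold changes were positive. DESeq2 called Pydc3, Ifi203 and Mndal higher and Ifi205 lower. Mndal had log2 fold changes of 0.58 in muscle and 0.38 in liver, neither called by edgeR (DESeq2 adjusted p = 0.0429 in muscle). Mnda, which lies between Mndal and Ifi203, had -0.04 in muscle, and the difference between its tissue effects was 1.56 ± 0.28 (edgeR adjusted p = 0.0561; 0.0442 with no filter on low counts; DESeq2 0.000925). Ifi205 and Mnda share sequence: 15% of the 100-base stretches of Ifi205 transcripts also occur in Mnda transcripts, as do 9.56% of those of Ifi204. Of the stretches of Mnda itself 56.9% occur in other genes, 37.2% in Ifi205, and of those of Pyhin1 16.9% occur in another gene, so the counts of these genes, of Mnda above all, are not fully separate. The share found in any other gene was 5.92% for Pydc3, 2.84% for Ifi203, 0.193% for Samhd1 and 0 for Aim2, Mb21d1, Tlr9 and Tmem173.

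**Figure D4:**
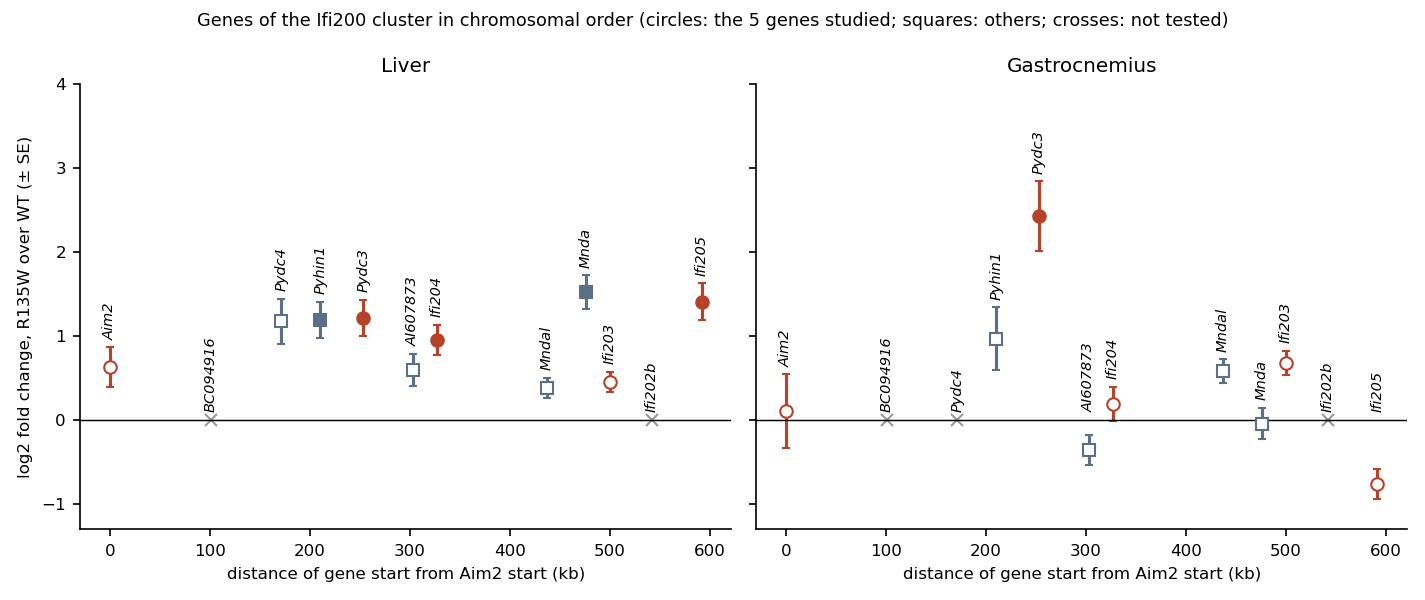
Log2 fold change of R135W over WT (± SE) for the 12 genes of the Ifi200 cluster, placed by the distance of their start from that of Aim2 (kb), in liver and gastrocnemius (circles: the genes followed here; squares: other cluster genes; filled: adjusted p under 0.05; crosses at 0: not tested). Estimates are all positive in liver, and in gastrocnemius they run from -0.76 at the far end to 2.43 for Pydc3.

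Other genes of the same pathways, from lists chosen by function with earlier results of these data known, were counted beside the 10. Downstream of STING, 3 of 19 tested genes rose in liver and 0 fell. Irf7, the interferon-induced transcription factor that amplifies interferon genes, averaged 282 ± 65.2 CPM in R135W liver and 49.2 ± 3.65 CPM in WT liver (log2 fold change 2.51, edgeR adjusted p = 0.00186). In muscle it averaged 22.7 ± 7.09 CPM in R135W mice and 3.80 ± 1.09 CPM in WT mice (2.56, edgeR adjusted p = 0.00918), the only 1 of 18 called there. Cxcl10, a chemokine gene, averaged 12.9 ± 1.2 CPM in R135W liver and 3.03 ± 1.28 CPM in WT liver (2.09, edgeR adjusted p = 0.0082). Abcc1, a membrane transporter, averaged 4.45 ± 0.592 CPM in R135W liver and 2.47 ± 0.0418 CPM in WT liver (0.84, edgeR adjusted p = 0.0414).

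Of 17 other proposed DNA sensors, 1 rose in liver, Zbp1, whose product binds left-handed Z-DNA and Z-RNA. It averaged 42.5 ± 11.4 CPM in R135W liver and 10.7 ± 0.847 CPM in WT liver (log2 fold change 1.99, edgeR adjusted p = 0.00474). In muscle it had a log2 fold change of 1.62 and an edgeR adjusted p of 0.16, and 0 of 17 passed in edgeR, DESeq2 or limma-voom, with 3 at an unadjusted p under 0.05.

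Around TLR9, 5 of 14 tested genes of endosomal Toll-like receptors and their partners rose in liver. Tlr7, a receptor for single-stranded RNA, averaged 4.21 ± 0.677 CPM in R135W liver and 1.44 ± 0.612 CPM in WT liver (log2 fold change 1.52, edgeR adjusted p = 0.032). Tlr13, a receptor for bacterial ribosomal RNA in mice, had a log2 fold change of 1.31, the trafficking chaperone gene Unc93b1 of 0.66 and the receptor-processing protease gene Lgmn of 0.87. The transcription factor gene Irf5, the last of the 5, had 0.84. In muscle 0 of 12 passed in edgeR, DESeq2 or limma-voom, with 1, Irf5 (0.48), at an unadjusted p under 0.05.

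Of 16 tested genes for other nucleases and enzymes that act on nucleic acids, 2 rose in liver. They were Adar, whose product edits double-stranded RNA (log2 fold change 0.83), and Pld4, an endolysosomal exonuclease gene (1.11). Adar averaged 55.9 ± 4.90 CPM in R135W liver and 31.3 ± 0.465 CPM in WT liver (edgeR adjusted p = 0.00913). In muscle 0 of 14 passed by any of the 3 tools, with 1 at an unadjusted p under 0.05, Adar at 0.43.

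Of 16 inflammasome partners 1, Nlrp3, rose in liver (log2 fold change 1.5, edgeR adjusted p = 0.0315), and it averaged 2.61 ± 0.722 CPM in R135W liver and 0.911 ± 0.166 CPM in WT liver. In muscle 0 of 10 passed by any of the 3 tools, with 1 at an unadjusted p under 0.05, Naip5 (0.90). Of 16 genes of mitochondrial DNA maintenance and release, 0 passed by any of the 3 tools in liver, with 2 at an unadjusted p under 0.05, and 0 in muscle, with 1. Bak1, which encodes a pore-forming protein of the outer mitochondrial membrane, had the smallest p of that list in liver (0.47, edgeR adjusted p = 0.153), and Polg, the mitochondrial DNA polymerase gene, had the smallest in muscle (-0.15, 0.357).

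A list of 20 other interferon-stimulated genes gave the scale of the response. In liver 18 of 20 rose, with a median log2 fold change of 2.03, against 0.71 for the 10 genes, and their summed level was 805 to 1346 CPM in R135W mice and 407 to 474 CPM in WT mice. In muscle 9 of 18 tested rose, with a median of 1.10, against 0.10 for the 9 tested genes, and they summed to 112 to 169 CPM in R135W mice and 71.2 to 81.1 CPM in WT mice. No test compared the lists.

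**Figure D5:**
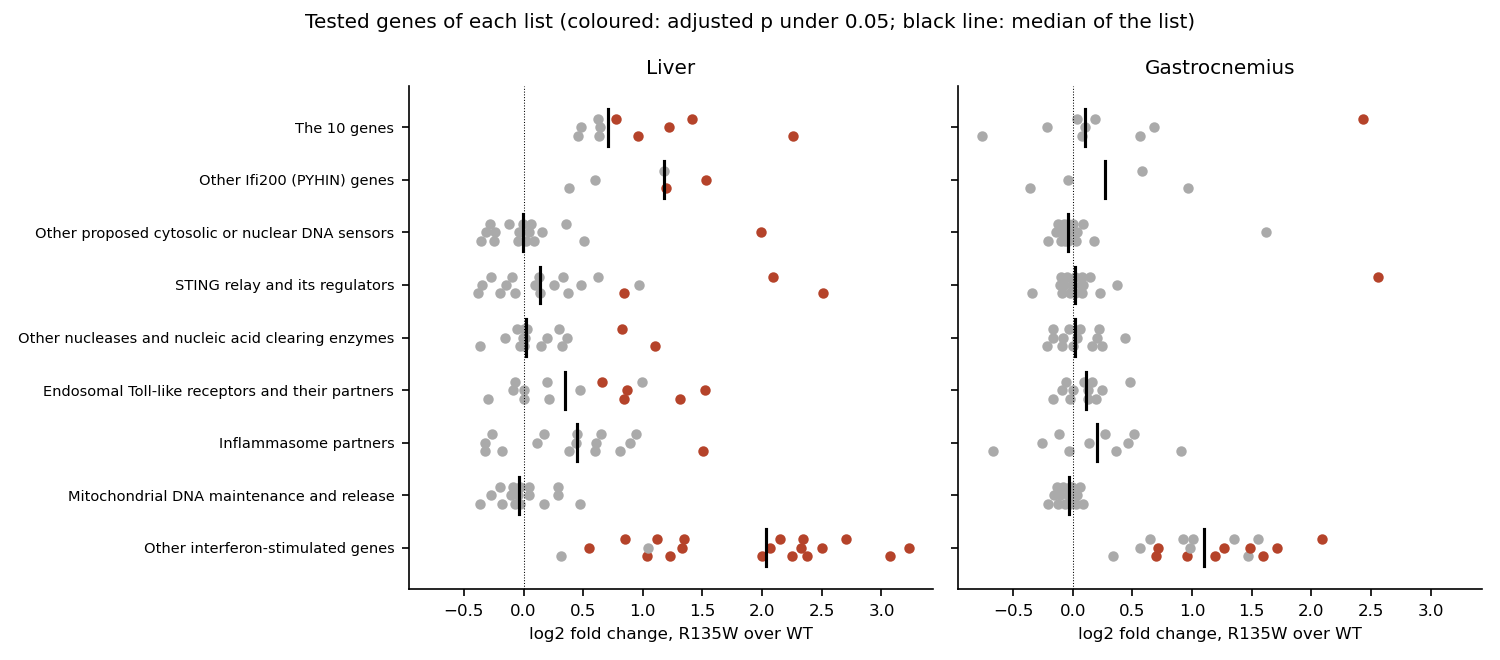
Log2 fold change of R135W over WT for the tested genes of each list in liver and gastrocnemius (points: genes; red: adjusted p under 0.05; black lines: median of the list). In liver the 10 genes lie between 0.46 and 2.26 and the median of the interferon-stimulated genes is 2.03, which of the 10 Tlr9 alone exceeds, while the mitochondrial DNA list centres on -0.04.

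The alpha and beta interferon genes themselves gave almost no counts. Ifnb1, named here after its values were seen, had 1 count in the livers of R135W animals 5 and 12 and WT animal 9, and 0 in the other libraries. The 15 alpha and beta interferon symbols of the files had 4 counts in all over 12 libraries, so no difference was detectable at this depth. Outside these symbols Ifnk, also named after its values were seen, had 23 counts, all in liver. It had 0, 1 and 7 in R135W animals 5, 7 and 12 and 6, 1 and 8 in WT animals 6, 8 and 9.

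The nearest genes by pattern were named by the Pearson r of log2 CPM over the 12 libraries, centred within each tissue, among 12413 genes. Ifi203 was nearest to Oas2 (0.98) and to Mndal of the same cluster (0.98), Pydc3 also to Oas2 (0.97), Samhd1 to Znfx1 (0.98), Ifi204 to Tor3a (0.94), Trex1 to Mpeg1 (0.94) and Ifi205 to Rassf4 (0.94). Aim2 was nearest to Sumo3 (0.95), Tmem173 to Gatm (0.93) and Mb21d1 to Unc13d (0.92). Among the genes themselves r was 0.99 for Ifi203 with Pydc3, 0.90 for Trex1 with Ifi204 and 0.08 for Ifi205 with Pydc3. These values describe libraries that share animals, genotype and depth.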

How the data were processed

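Counts were deposited per library; per the file headers the authors counted read pairs over exons of mm10 gene symbols with featureCounts 1.5.2 (primary alignments, no strand option, a pair counted for each gene it overlaps). Alignment was with STAR 2.4.0, per the processing notes of the submitters. The counts carry no normalization. None of the 10 genes shares exon bases with another gene of that annotation. The members and lists were chosen with earlier results of these data known.

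From the counts, edgeR 4.0.16 (R 4.3.3; TMM, filterByExpr, quasi-likelihood F test) was run over all genes within each tissue, over all 12 libraries for the difference between tissues, and over the WT libraries for tissue. An adjusted p (Benjamini-Hochberg over all tested genes) of 0.05 was the threshold, and each SE was taken as |log2 fold change|/√F. CPM use TMM factors over 12 libraries, and RPKM divide CPM by exon length. DESeq2 1.42.0, limma-voom (limma 3.58.1) and the other alternatives are in the closing section. Within-tissue fits drop no library. On counts simulated from these libraries, 76% of 2-fold and 96% of 4-fold changes were recovered in liver, and 89% and 96% in gastrocnemius. The shares were 44% and 81% for the difference between tissues, and 78% and 98% between WT tissues. False calls numbered 10, 8, 10 and 15 in the same order. The changed genes were drawn from all tested genes, each with 1 mean over the libraries of the comparison before the change. Recovery of genes with few counts, or of the 10 genes, was not measured.

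Named genes are the 10, then in each list up to 4 called genes with the smallest p per tissue, or the 1 with the smallest p where none was called, and the nearest genes by r. Irf5 in liver and the cluster genes Ifi202b, Pydc4 and Ifi206 fall outside this rule and were named after their values were seen.

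Replicates are separate animals per the labels, and the animal numbers pair the liver and muscle libraries. The correlation of deviations between libraries of the same animal was -0.00662 to 0.0865, against -0.0821 to 0.0774 between different animals. The smallest chi-squared between libraries of a group, per degree of freedom, was 41.7 in liver (largest 118) and 8.07 in muscle (largest 17.8), so no pair agreed within sampling noise. Promoters come from RefSeq (GRCm38.p6, the assembly of mm10), and 100-base stretches, the read length, from GENCODE vM21 transcripts, in exact matches.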

Additional observations from a re-analysis of the deposited data

Results flagged for a closer look

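The genotype difference in Ifi205 differed between the tissues by the test of the difference itself: the log2 fold change in liver exceeded that in gastrocnemius by 2.16 ± 0.30 (SE; edgeR adjusted p = 0.0138). It was 1.41 in liver, where all 3 R135W livers were above all 3 WT livers. In muscle it was -0.76, where all 3 R135W samples were below all 3 WT samples, and edgeR did not call it (adjusted p = 0.11). With 1 animal left out, the difference between tissues was called in 1 of 6 fits (edgeR adjusted p 0.0479 to 0.12). Its transcripts share 15% of their 100-base stretches with Mnda, which had a difference of 1.56 (edgeR adjusted p = 0.0561), and a fragment of such a stretch could be counted for either gene; the part of these stretches in the result was not tested.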

How the results depend on the processing

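Directions held for the 10 genes in liver under every setting tried. Of the 10, 5 were called higher in liver with RLE size factors, DESeq2, limma-voom, no filter and a stricter filter, 8 in a fit of all 12 libraries, 3 with age as a covariate and 0 to 5 with 1 library left out. In muscle 1 was called higher as reported, 2 in DESeq2 (which also called 1 lower), 0 in limma-voom, 2 without a filter, 0 with the stricter filter (where Pydc3 was not tested), 2 with age, and 0 to 2 with 1 library left out. For the difference between tissues 1 gene was called, 2 in DESeq2, and 0 to 1 with 1 animal left out. In WT mice 1 to 2 of the 10 were called lower in liver with 1 animal left out. The causes were not tested, but leaving out libraries leaves fewer samples.

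Over all genes, those called higher in liver numbered 384, against 763 in the fit of all 12 libraries, 243 with age and 81 to 242 with 1 library left out. Those called lower numbered 73, against 244 in DESeq2, 294 in the fit of all libraries, 31 with age and 3 to 78. In muscle 75 were higher, against 168 in DESeq2, 15 in the fit of all libraries and 1 to 86, and 46 lower, against 106, 5 and 2 to 31. Tissue differences numbered 15 higher (DESeq2 106, limma-voom 7, left out 1 to 6) and 5 lower (78, 0 and 0 to 2).

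The animal numbers pair liver and muscle. With the replicate block the tissue difference called 13 genes higher and 3 lower, Ifi205 among them (2.18), and in WT mice the block changed no call of the 10 genes.

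Leaving out 1 library or animal turned the sign of small, uncalled log2 values. In muscle these ranged from -0.37 to 0.18 for Mb21d1, -0.22 to 0.56 for Aim2, -0.04 to 0.11 for Trex1, -0.19 to 0.13 for Mnda, -0.01 to 0.14 for Abcc1, -0.25 to 0.42 for Tlr7 and -0.01 to 0.10 for Bak1. In liver Polg ranged from -0.08 to 0.05. For the difference between tissues Tmem173 ranged from -0.01 to 0.12, Pyhin1 from -0.06 to 0.53 and Irf7 from -0.26 to 0.03. Between WT tissues Mnda ranged from -0.33 to 0.16 and Polg from -0.09 to 0.02. Depth limits Tlr9 in muscle and in WT liver and Pydc3 in WT muscle, each under 10 counts per library. The stricter filter also left Mb21d1, Aim2 and Tlr9 untested in muscle.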
